A study of Ovis aries and Mus musculus with 20 samples.

Results

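Sheep chromosome 14 was chosen by the difference of the compartment index between 2 depots of visceral fat, greater omentum (GOM) and mesenteric adipose (MAD). Its members were all 3556 bins of 20 kb that carry the chromosome number 14, of 132797 bins on 26 autosomes (2.68%), together with its topologically associating domains (TADs): 122 of 4387 in GOM, 117 of 4166 in MAD and 115 of 4187 in retroperitoneal adipose (RAD). The bins tile 71.12 Mb of the build Oar_rambouillet_v1.0 without a gap, and the chromosome is the 16th longest of the 26. In situ Hi-C, which counts how often pieces of DNA touch in the nucleus, was run on GOM, MAD and RAD of the same 3 adult females of the breed Small-tail Han sheep, 2-year-old, with 1 library per depot and animal and no treatment. Replicate numbers are animal numbers. No genotype was changed in any group, and each library stands for the floating, adipocyte-containing layer of 1 piece of tissue, and no sorting of cells is described. Nothing in the files gives the contacts behind a bin, and the error of an index is therefore the spread between animals.

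Chromosomes fold into an open, gene-rich A compartment and a compact, mostly silent B compartment, and each bin touches its own kind more often than the other. A and B regions are divided into TADs, stretches that contact themselves more than their neighbours and whose boundaries insulate genes from enhancers on the other side. The A-B index of a bin compares its contacts with A regions and with B regions of the chromosome, the latter being subtracted, so that a bin above 0 was counted as A and a bin at or below 0 as B. A later sheep assembly lists on chromosome 14 several genes known from fat biology, among them CEBPA, a transcription factor that drives adipocyte differentiation, LIPE, the hormone-sensitive lipase, FTO with its neighbours IRX3 and IRX5, a locus linked to body weight, and FOXC2, a regulator of brown fat genes. They are named as background. Their positions belong to another build, and none of them was placed on a bin.

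The chromosome as a whole was slightly more A than B in every library. The share of A bins was 56.7%, 55.6% and 55.9% for GOM replicates 1 to 3, 53.8%, 60.2% and 62.5% for MAD, and 51.1%, 54.9% and 59.5% for RAD. The ranges of the 3 depots overlap. As the mean of the 9 libraries the share was 56.7%, the second highest after chromosome 2 (57.3%), and the other chromosomes ranged from 34.9% to 57.3%. The mean index was -0.650 ± 0.0828 for GOM, -0.861 ± 0.120 for MAD and -0.770 ± 0.205 for RAD (SD, n = 3 animals).

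Chromosome 14 also holds about as many bins far from 0 as all other autosomes together. On average over the 9 libraries 125 of its bins lay below -10 and none above 10, which is 3.52% of the chromosome against 0.0928% of the bins elsewhere, the highest share of 26 chromosomes. Of these bins, 62 lie in short blocks before 46 Mb and 63 in a cluster after 62 Mb. The blocks named here were picked after their values were seen. The widest of the early ones was 16780001 to 17280000 on chromosome 14, a stretch of 500 kb with an index of -24.4, -21.8 and -24.2 for GOM, -24.5, -28.9 and -27.8 for MAD and -23.7, -24.0 and -23.3 for RAD replicates 1 to 3. MAD replicates 2 and 3 were the lowest of the 9 there, and MAD replicate 1 lay next to GOM. The block of 260 kb from 34720001 to 34980000 had the same order, with -31.5, -29.3 and -32.5 for GOM, -31.3, -39.4 and -37.9 for MAD and -29.3, -31.1 and -31.2 for RAD. By the sign of the index these blocks were B in all libraries and depots. Whether these blocks hold few contacts or repeats could not be checked here. They set the spread of the index over the chromosome. Its SD over bins was 4.77, 4.58 and 4.75 for GOM, 4.55, 5.36 and 5.23 for MAD and 4.46, 4.77 and 4.71 for RAD, and without the 125 bins it fell to between 2.41 and 2.81, between rank 19 and rank 26 from the highest of 26 chromosomes. Correlations are given without these bins and with them, a choice made after their values were seen.

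**Figure D1:**
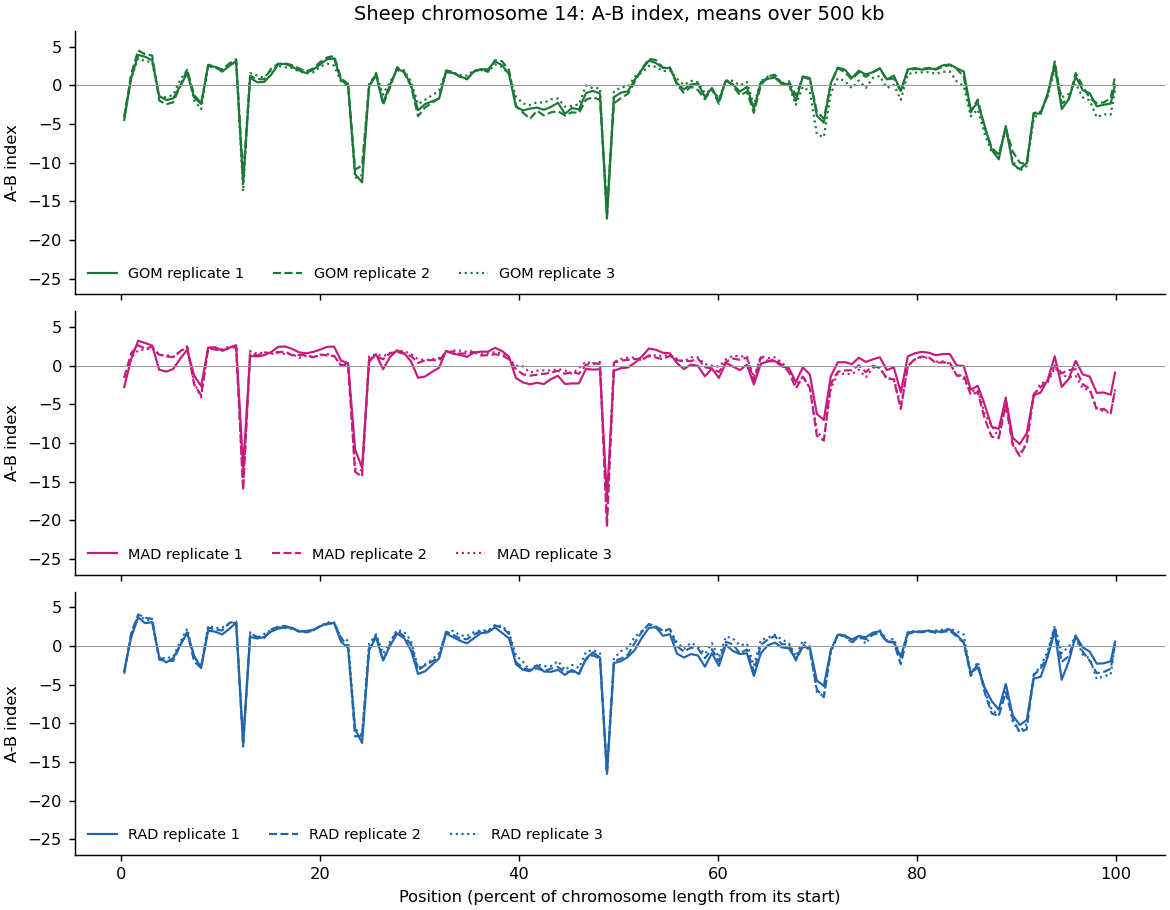
A-B index along sheep chromosome 14 as means over 500 kb, with position as a percent of the chromosome's length, 1 panel per depot and 1 line per library (solid, dashed and dotted for replicates 1, 2 and 3). Narrow troughs recur in all 9 libraries. Outside these troughs, MAD replicates 2 and 3 are flatter than the rest over the first 60% of the chromosome and lower at 70% to 85%.

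One state in all 9 libraries was found for 2010 bins of the chromosome (56.5%). A was the state in all 9 libraries for 1276 bins (35.9%, against 39.4% elsewhere) and B for 734 bins (20.6%, against 41.2%). The other 1546 bins (43.5%) had both states among the 9 libraries, against 19.4% on the other chromosomes. Bins that were A in all 3 MAD libraries and B in all 6 others numbered 35 (0.984%, against 0.292% elsewhere), and the opposite pattern was found in 43 (1.21%, against 0.0650%). The chromosome was chosen on MAD and GOM values, so nothing is read from an excess of such bins over the other chromosomes. The MAD libraries did not move alike against the other depots. MAD replicate 1 was A in 56 bins that were B in all 6 GOM and RAD libraries (1.57% of the chromosome, against 1.39% of the bins elsewhere). MAD replicate 2 was A in 295 such bins (8.30%, against 1.17%) and MAD replicate 3 in 354 (9.96%, against 1.09%). In the other direction the 3 libraries were B in 72, 171 and 184 bins that were A in all 6 (2.02%, 4.81% and 5.17%, against 0.646%, 0.460% and 0.425%). Between GOM and RAD such a clean split was rare, with 6 bins A in all GOM and B in all RAD libraries and 3 bins the other way round (0.169% and 0.0844% of the chromosome, against 0.238% and 0.105% elsewhere).

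Over the 3431 bins left, the MAD libraries were less like the other depots on chromosome 14 than on any other autosome. Pearson's r between a MAD and a GOM or RAD library averaged 0.757, against 0.929 to 0.985 on the other 25 chromosomes. Between GOM and RAD libraries it averaged 0.910, also the lowest of the 26 (others 0.940 to 0.987). With all bins the values were 0.920 and 0.964, the first still the lowest and the second rank 14 from the lowest, and as Spearman's rho they were 0.720 and 0.915, both the lowest. For MAD replicate 1 alone, r to GOM and RAD averaged 0.955 with all bins, rank 14 from the lowest. Over the 3431 bins it was 0.880 and as Spearman's rho with all bins 0.884, both the lowest. The bins of a chromosome are neighbours, and their index is set against the same A and B regions within a library, so these are descriptions of likeness without a test. The choice of the chromosome on GOM and MAD values favoured low ranks of MAD, here and in the measures below. Nothing is read from these ranks.

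**Figure D2:**
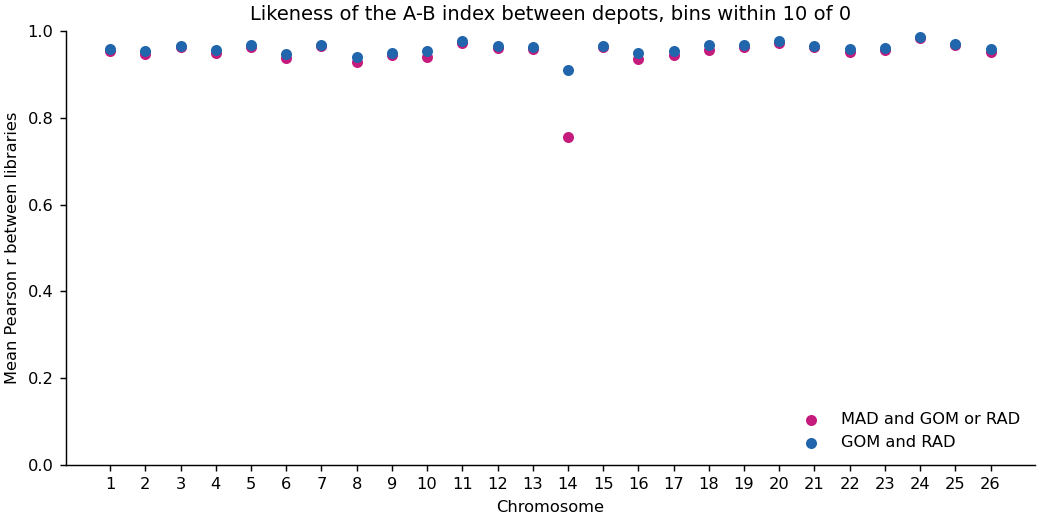
Mean Pearson's r between the A-B indices of libraries of different depots for each sheep autosome, over bins whose mean index lies within 10 of 0. Chromosome 14 is the lowest for both kinds of pairs, at 0.757 for MAD with GOM or RAD and 0.910 for GOM with RAD.

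The MAD library of animal 1 stood apart from its own depot on this chromosome. Without the far bins its r averaged 0.815 to the other MAD libraries and 0.880 to the GOM and RAD libraries, whereas MAD replicate 2 had 0.871 and 0.720 and MAD replicate 3 had 0.859 and 0.671. Over all bins its closest relative was GOM replicate 3 (r = 0.964), MAD replicates 2 and 3 were closest to each other (0.972), and each GOM library was closest to the RAD library of the same animal (0.971, 0.973 and 0.973). Without the far bins these relations were the same except for GOM replicate 1, which was closest to GOM replicate 2 (0.925). On the other 25 chromosomes MAD replicate 1 was closer on average to MAD than to GOM or RAD on all 25. The first principal component of the windows without far bins took 72.6% of the variance between libraries on chromosome 14, the highest of 26 (others 32.1% to 53.0%). Its loadings were -0.306, -0.374 and 0.0242 for GOM replicates 1 to 3, 0.0683, 0.533 and 0.598 for MAD and -0.287, -0.171 and -0.0858 for RAD. MAD replicate 1 and GOM replicate 3 thus lay between the other MAD libraries and the rest, and every value below for MAD as a group joins libraries that differ in this way. The rank of the component is not read as a result, since MAD and GOM values chose the chromosome.

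Likeness was also described at a long and a short scale. After averaging over 51 bins, about 1 Mb, r of MAD with GOM or RAD was 0.813 against 0.972 to 0.996 on the other chromosomes. For the deviation of each bin from that running mean it was 0.566, against 0.777 to 0.909. Both were the lowest of 26 without the far bins. With these bins the local value was 0.931, the highest of the 26, near the 0.940 within GOM, 0.941 within MAD and 0.937 within RAD. Without the far bins neither measure was computed within depots or between GOM and RAD. The low values there are therefore not read as a difference between depots at either scale.

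In windows of 100 kb, the index differed between GOM and MAD in 289 of the 712 windows of chromosome 14 (limma, Benjamini-Hochberg adjusted p under 0.05 over all windows), or 40.6% against 9.51% of all sheep windows. This contrast chose the chromosome, so nothing is read from the excess. Of the 289 windows, 109 were higher in MAD (6.48% of all sheep windows were) and 180 lower (3.03%). With each chromosome centred and scaled in each library the split was 141 higher and 145 lower, and after quantile normalization 93 and 207. MAD libraries also lay above GOM by a median of 0.15 over all windows of the genome and below it by 0.29 on chromosome 14. The count fell to 91 without GOM replicate 1, 149 without GOM replicate 2, 143 without MAD replicate 2 and 123 without MAD replicate 3. The share rose from 40.6% to 48.0% without GOM replicate 3 and to 48.2% without MAD replicate 1. The share of all sheep windows called without each library is not given here, so these shifts are not read as particular to chromosome 14. None of the 39 windows with a far bin was called, among them the one with the lowest difference of MAD minus GOM (8700001 to 8800000), at -32.99, -31.89 and -36.21 for GOM, -35.4, -41.7 and -42.0 for MAD and -31.9, -34.6 and -34.8 for RAD.

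More of the called windows kept their compartment than crossed from one to the other. Of the windows higher in MAD, by the depot means 52 were A in MAD but B in GOM, 51 were B in both and 6 were A in both. Of those lower in MAD, 98 were A in both, 48 went from A to B and 34 were B in both. The 3 MAD libraries took different parts in this. Over all windows of chromosome 14, called or not, MAD replicate 1 lay outside the range of the 6 GOM and RAD libraries in 38.5%, replicate 2 in 75.6% and replicate 3 in 78.1%, against 43.0%, 40.3% and 38.3% on the other chromosomes. The call itself favours such windows. Among the windows called higher, MAD replicate 1 lay above all 6 GOM and RAD libraries in 80, replicate 2 in 108 and replicate 3 in 109, and the median differences from their mean were 1.04, 2.38 and 2.63. Among those called lower, the 3 replicates lay below all 6 in 117, 177 and 178 windows, with median differences of -0.78, -1.83 and -1.97.

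MAD and RAD differed in 244 windows (34.3% against 8.89% of all sheep windows), a contrast that uses the same MAD libraries. RAD was higher in 121 (1.11% of all sheep windows were) and lower in 123 (7.78%). After quantile normalization the split was 176 and 86. Without MAD replicate 2 the count was 121, without MAD replicate 3 it was 84 and without RAD replicate 2 it was 115. The share rose from 34.3% to 44.8% without MAD replicate 1 and to 38.5% without GOM replicate 3. Here too the share of all sheep windows is not set beside these shifts. The windows with the highest and lowest difference of RAD minus MAD were not called. At 34800001 to 34900000, a window of far bins, the index was -31.8, -40.2 and -37.9 in MAD and -29.3, -31.3 and -30.8 in RAD. At 67400001 to 67500000 it was -3.43, -0.740 and 1.05 in MAD and -8.20, -4.04 and -1.94 in RAD, and the 2 depots overlap there.

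The direction of the difference changed along the chromosome. In the third segment of 10 Mb (20000001 to 30000000) the mean index was -0.0491, -0.167 and 0.305 for GOM, 0.314, 0.791 and 1.08 for MAD and -0.437, -0.0982 and 0.232 for RAD replicates 1 to 3. All 3 MAD libraries lay above the other 6, the first of them by little. In the sixth segment (50000001 to 60000000) the means were 1.38, 1.29 and 0.296 for GOM, 0.118, -1.07 and -1.20 for MAD and 0.903, 0.651 and 0.836 for RAD. Here the MAD libraries were the 3 lowest, and GOM replicate 3 came next. Of the 100 windows of that segment 77 were called lower in MAD and 0 higher, while in the third segment 32 were called higher and 8 lower.

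The share of A bins moved with these means. In the sixth segment it was 89.2%, 87.6% and 71.4% for GOM, 67.6%, 45.0% and 41.8% for MAD and 84.0%, 81.4% and 84.0% for RAD. In the fourth segment (30000001 to 40000000) it was 36.0%, 33.8% and 45.4% for GOM, 41.2%, 59.8% and 66.2% for MAD and 28.6%, 34.6% and 38.6% for RAD, so that MAD replicate 1 lay inside the range of GOM. Windows called there numbered 31 higher and 15 lower in MAD. In the remaining segments the mean indices of the GOM and MAD libraries overlapped, with MAD minus GOM at 0.181 in the first, -0.334 in the second, -0.0918 in the fifth, -0.445 in the seventh and -2.49 in the last, which holds only 12 windows. Without the far bins the first and second became 0.352 and -0.161, and in the first the libraries no longer overlapped, with 1.23, 1.41 and 1.36 for GOM and 1.45, 1.82 and 1.79 for MAD.

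In the third segment mainly the B bins differed, and in the sixth bins of both compartments. In the third segment the 206 bins that were B by the mean of GOM and RAD had a mean index of -2.52 in GOM and -2.47 in RAD, and of -1.55, -0.186 and 0.286 in MAD replicates 1 to 3. The 294 A bins of that segment had 1.81 and 1.56, and 1.62, 1.47 and 1.64. In the sixth segment the 71 B bins lay farther from 0 in MAD, at -4.17, -6.09 and -6.18 against -2.57 in GOM and -3.13 in RAD, and the 429 A bins were at 0.827, -0.241 and -0.381 against 1.58 and 1.45. The states were taken from the GOM and RAD values themselves, which favours values nearer 0 in MAD.

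**Figure D3:**
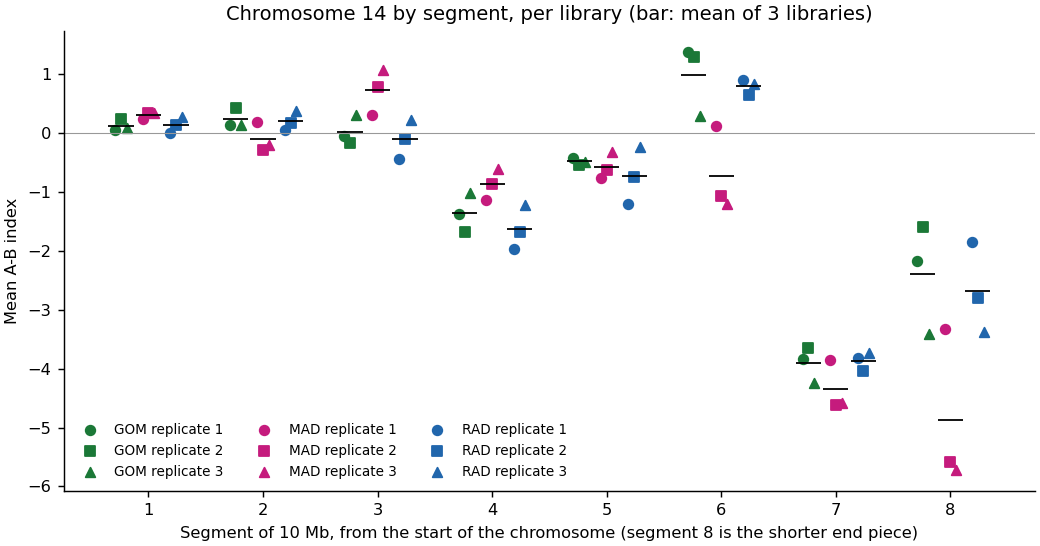
Mean A-B index of each library in the 8 segments of chromosome 14, with circles, squares and triangles for animals 1, 2 and 3 and a bar at the mean of the 3 libraries. MAD lies above the other depots in segment 3 and below them in segment 6, where MAD replicate 1 (0.118) and GOM replicate 3 (0.296) lie next to each other.

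Within the segments the called windows formed runs. The 109 windows higher in MAD fell into 34 runs and the 180 lower windows into 45, of which 13 and 24 were single windows and 5 and 11 held 5 windows or more. The 3 longest runs in each direction were examined library by library. The first run higher in MAD (chromosome 14, 2500001 to 3900000, 1.4 Mb) had an index of -1.69, -2.23 and -1.52 for GOM, -0.592, 1.30 and 1.42 for MAD and -1.80, -1.90 and -1.64 for RAD. Of its 70 bins, 5, 3 and 7 were A in the GOM libraries, 15, 62 and 63 in the MAD libraries and 3, 8 and 9 in the RAD libraries. MAD replicates 2 and 3 were thus in the A compartment over nearly the whole run, and MAD replicate 1 was mostly B like the other depots. This stretch also held the 100-kb window with the highest difference of MAD minus GOM, 3300001 to 3400000, at -3.30, -3.80 and -2.59 for GOM, -0.706, 1.30 and 1.89 for MAD and -2.79, -3.11 and -2.20 for RAD.

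The run of 0.8 Mb from 18500001 to 19300000 followed the same order. Its index was -1.78, -2.09 and -0.865 for GOM, -0.0900, 1.06 and 1.27 for MAD and -1.60, -1.50 and -0.763 for RAD. Of its 40 bins 14, 36 and 38 were A in MAD, against 4 to 10 in the 6 other libraries. Over the 2 Mb from 21000001 to 23000000, the longest run of either direction, 13, 83 and 86 of 100 bins were A in MAD replicates 1 to 3, against 1 to 6 in GOM and RAD, with an index of -1.02, 0.603 and 0.832 in MAD and between -2.75 and -1.55 in the rest.

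Among the runs lower in MAD, the one from 48900001 to 50800000 was B in all depots and lay deepest in MAD. Its index was -2.01, -1.86 and -3.96 for GOM, -4.12, -6.30 and -6.19 for MAD and -2.83, -3.60 and -3.55 for RAD, with 3, 1 and 0 of 95 bins in A in MAD against 4 to 39 elsewhere. GOM replicate 3 and MAD replicate 1 lay next to each other. From 55000001 to 56500000 the index was 0.879, 0.720 and -0.113 for GOM, -0.831, -2.49 and -2.34 for MAD and 0.258, -0.144 and 0.412 for RAD. The A share of its 75 bins was 48.0%, 18.7% and 22.7% in MAD and 57.3% to 77.3% in the other libraries. From 58200001 to 60100000 it was 2.38, 2.25 and 1.31 for GOM, 0.929, -0.159 and -0.156 for MAD and 1.72, 1.56 and 1.99 for RAD. Of the 95 bins of that run 83 to 95 were A in the GOM and RAD libraries, 76 in MAD replicate 1 and 54 and 57 in replicates 2 and 3.

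**Figure D4:**
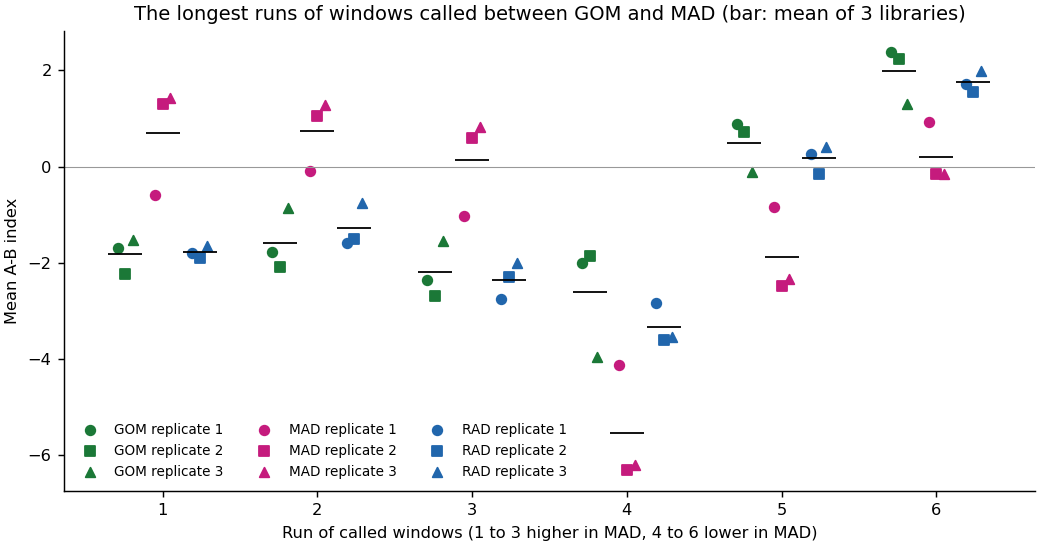
Mean A-B index of each library over the 3 longest runs of windows called higher in MAD than in GOM (runs 1 to 3) and the 3 longest called lower (runs 4 to 6), in order along chromosome 14, with a bar at the mean of the 3 libraries. In all 6 runs the MAD libraries lie beyond the 6 others, and MAD replicate 1 is the nearest of the 3 to them.

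The chromosome was not chosen on the difference between GOM and RAD, although the GOM libraries entered the choice, and between these depots no window passed the test. By limma 0 of the 712 windows differed (0% of all sheep windows were called), the unadjusted p was under 0.05 in 3.37% of them against 9.95% of all sheep windows, and the median size of the difference was 0.25 against 0.23 elsewhere. The model took 1 estimate of spread per window from all 9 libraries, so the spread between MAD libraries entered these p values. The lower share of small p is therefore not read as a greater likeness of GOM and RAD. The window with the highest difference of RAD minus GOM, 300001 to 400000, was at -4.77, -4.84 and -3.77 in GOM and -2.45, -3.55 and -3.43 in RAD (difference 1.32, SE 0.594, limma adjusted p 0.474). The window with the lowest difference, 55500001 to 55600000, was at -0.959, -1.10 and -2.58 in GOM and -2.48, -3.30 and -2.37 in RAD (difference -1.17, SE 0.562, limma adjusted p 0.516). The libraries of GOM and RAD do not overlap in the first window and overlap in the second.

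Libraries of the same depot were compared with libraries of GOM and RAD across depots. Over all bins r averaged 0.960 within and 0.964 between the depots, a difference of -0.00466 (one-sided exact permutation p 0.9, n = 3 and 3), and without the far bins 0.902 and 0.910. The pairs between depots include those of the same animal, which averaged 0.972 over all bins, while pairs within a depot never do. With different animals only, r between the depots was 0.960, a difference of -0.000677 (one-sided exact permutation within animals, p 0.75, where the smallest p allowed is 0.25). The share of A bins was 56.1% ± 0.581 in GOM and 55.2% ± 4.22 in RAD (SD, n = 3 animals each), a difference of -0.928 percentage points (two-sided exact permutation p 0.7). The SD over bins was 4.70 ± 0.101 and 4.65 ± 0.166, a difference of -0.0552 (two-sided exact permutation p 0.7). The smallest p that 3 against 3 libraries allow is 0.1, so none of these tests could pass 0.05, and a difference the size of the spread between animals was not detectable.

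TADs were called by the authors on maps merged over the 3 animals of a depot, so they have no replicates, and they come from a measure of insulation that does not use the compartments. Number, length and sharing of TADs on chromosome 14 lay within the range of the other chromosomes. GOM, MAD and RAD had 122, 117 and 115 TADs with medians of 480, 480 and 500 kb, against 440 to 560 kb on the other chromosomes, and TADs covered 95.1%, 95.3% and 95.4% of its length. Of the 125 boundaries in GOM, 113 had a boundary in MAD within 40 kb (90.4%, 95% Wilson interval 84.0% to 94.4%), and the share on the other 25 chromosomes ranged from 84.1% to 95.1%. Of the 118 boundaries in MAD 94.9% were found in GOM and 92.4% in RAD, and of the 116 boundaries in RAD 95.7% were found in GOM and 94.0% in MAD. For GOM boundaries in RAD the share was 88.8%. All 6 values lay within the range of the other chromosomes. The intervals treat boundaries as independent and cover counting error only.

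Boundaries found in 1 depot alone numbered 7 of 125 for GOM (5.60%), 3 of 118 for MAD (2.54%) and 3 of 116 for RAD (2.59%). The median shares on the other chromosomes were 6.88%, 3.61% and 2.40%. One of the MAD boundaries, 55460001 to 55480000 on chromosome 14, lay inside a run lower in MAD, where the index was -0.418 for GOM, -3.47 for MAD and -0.973 for RAD. A RAD boundary at 3860001 to 3880000 lay in the first run higher in MAD. Of the GOM boundaries in windows called between GOM and MAD 43 of 50 (86.0%) recurred in MAD, and outside them 70 of 75 (93.3%) did. Of the MAD boundaries in such windows 43 of 47 (91.5%) recurred in GOM, and outside them 69 of 71 (97.2%). Toward RAD the order was the other way round, with 46 of 50 GOM boundaries (92.0%) in such windows against 65 of 75 outside (86.7%), and 46 of 47 MAD boundaries (97.9%) against 63 of 71 (88.7%). Counted from RAD it was not. Of the RAD boundaries 46 of 50 (92.0%) in such windows recurred in GOM, and outside them 65 of 66 (98.5%). In MAD 46 of 50 (92.0%) and 63 of 66 (95.5%) recurred. The order between GOM and RAD thus depended on the list counted, and nothing is read from it.

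The longest TAD of the chromosome was the same in all depots and lay over the longest run higher in MAD. It ran from 20660001 to 22960000 (2300 kb) in GOM and MAD and from 20680001 to 22960000 (2280 kb) in RAD. Over it the mean index was -1.99 ± 0.542 for GOM, 0.212 ± 0.968 for MAD and -2.14 ± 0.436 for RAD (SD, n = 3 animals). Its ends thus stayed within 1 bin while the index differed. The next longest of MAD and RAD, 35080001 to 36840000 (1760 kb), was also shared, and GOM had 1 boundary inside it, at 35640001 to 35660000. There the index was -0.727 ± 0.638 for GOM, 0.497 ± 0.634 for MAD and -1.15 ± 0.628 for RAD. The GOM TAD from 28760001 to 30940000 (2180 kb) held 1 MAD and 2 RAD boundaries, at an index of -2.97 ± 0.737, -1.33 ± 0.806 and -2.93 ± 0.222 in the same order. The third longest of GOM, 23380001 to 24760000, and of MAD, 23400001 to 24780000, were 1380 kb each and lay 20 kb apart. They were A in all depots, at 1.34 ± 0.115, 1.68 ± 0.215 and 1.16 ± 0.326 over the GOM TAD. The third longest of RAD, 45600001 to 47020000 (1420 kb), had an index of 0.944 ± 0.0938, 0.779 ± 0.289 and 0.669 ± 0.625.

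Compartment edges, where A changes to B after runs under 5 bins were merged into their surroundings, numbered 51, 53 and 60 for GOM, 60, 61 and 45 for MAD and 49, 53 and 49 for RAD. These numbers overlap between depots. Without merging, the MAD libraries had 478 to 532 edges and the others 296 to 428. Their positions were compared between single libraries within 100 kb. TAD boundaries were compared between lists from merged maps within 40 kb, so the shares of edges and of boundaries are unlike measures. An edge of a GOM library had an edge of a MAD library within 100 kb, or the reverse, in 41.2% of cases on average (other chromosomes 63.3% to 86.0%). For MAD and RAD the share was 38.7% (60.7% to 86.2%) and for GOM and RAD 64.9% (66.4% to 88.1%). Each was the lowest of 26 chromosomes, as were the shares within GOM (64.7%), within MAD (45.0%) and within RAD (65.5%). Edges of MAD replicate 1 recurred in GOM or RAD libraries in 54.7% of cases and in the other MAD libraries in 35.8%, whereas those of replicate 2 did so in 29.2% and 42.6% and those of replicate 3 in 32.96% and 56.7%. The longest A run was 10.7 and 10.8 Mb in MAD replicates 2 and 3, and 6.96 to 7.22 Mb in the 7 other libraries. This rests on the merging, since without it the longest was 2.88 and 4.96 Mb in these MAD libraries and 3.30 to 4.54 Mb in the others. Of the edges, 42.0% ± 9.13 for GOM, 31.3% ± 5.22 for MAD and 39.1% ± 2.10 for RAD (SD, n = 3 animals) lay within 40 kb of a TAD boundary of the same depot.

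**Figure D5:**
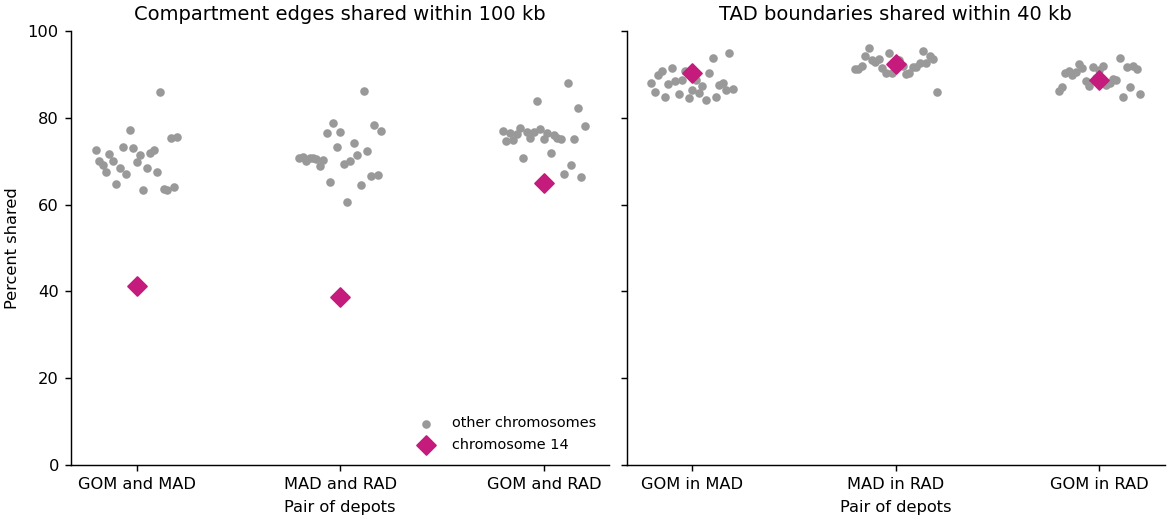
Left, the percent of compartment edges of one library found within 100 kb in a library of the other depot, averaged over library pairs. Right, the percent of TAD boundaries of the first depot found within 40 kb in the second. The left side compares single libraries and the right side lists from merged maps, so their heights are not comparable. Each grey point is an autosome and the diamond is chromosome 14, which is the lowest at left (41.2%, 38.7% and 64.9%) and inside the range of the others at right (90.4%, 92.4% and 88.8%).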

How the data were processed

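In situ Hi-C of GOM, MAD and RAD from 3 sheep gave 9 libraries. The authors aligned the reads with BWA in the Juicer pipeline, split every chromosome into A and B at 100 kb separately for each library, by principal component analysis of contacts oriented by gene density, and deposited for each library a signed score per 20-kb bin, the A-B index. Each index is thus relative to the A and B regions of the same chromosome and library, so a change in these regions touches many bins of a chromosome together. The authors deposited TADs per depot as positions, called from insulation on replicate-merged, Knight-Ruiz balanced maps. Depth per library or bin was not used here and no interval for an index can be given. Coordinates are those of Oar_rambouillet_v1.0, counted from 1.

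The score was averaged over windows of 100 kb (5 bins) and tested across all 26570 windows with limma 3.58.1 in R 4.3.3 (depot only, all 9 libraries, variance trend, Benjamini-Hochberg adjustment), after the step was tested on simulated data. Other values came from Python 3.11.15 with pandas 2.3.3 and scipy 1.17.1. Called between GOM and MAD or MAD and RAD is a description on chromosome 14, since it was chosen from those libraries. The members, lists and tests were chosen with earlier results of these data known. Regions named were the 3 longest runs of called windows per direction, the windows with the highest and lowest difference per pair of depots, all segments of 10 Mb and the 3 longest TADs per depot. The blocks of far bins and the boundaries of 1 depot named were added after seeing the values. Running means, principal components, state counts and edge sharing were also added after seeing the data.

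Depots of the same number come from the same animal per the labels. Over all windows, library deviations from the depot mean had a mean r of 0.183 (-0.0304 to 0.440) for 9 pairs of the same animal. For pairs of different animals it was -0.0916 (-0.255 to 0.0980). On chromosome 14 the values were 0.348 (-0.525 to 0.769) and -0.180 (-0.790 to 0.699), in the same order. Deviations from a depot mean cancel out within the depot, which largely ties the mean for different animals to that for the same animal. The gap between these means is therefore not read as a check of the labels. Alternatives were other window sizes, normalizations, a replicate block for the animal, leaving out each library, other tolerances and other merging of runs. Sheep expression was not used, since its gene identifiers could not be placed on this build or paired with names, and depot markers were therefore not checked. No sequence of this build was used here.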

Additional observations from a re-analysis of the deposited data

How the results depend on the processing

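GOM and RAD had 0 called windows on chromosome 14 in every alternative. With 20-kb bins 0% of bins were called between GOM and MAD or MAD and RAD by limma, where 39.7% and 37.5% had an unadjusted p under 0.05. With windows of 500 kb 53.1% were called between MAD and RAD. With the animal as a replicate block, which pairs the depots, 53.5%, 48.9% and 0% of windows were called for GOM and MAD, MAD and RAD, and GOM and RAD. Without the block these shares were 40.6%, 34.3% and 0%. For the GOM and RAD correlation, share and SD the block gave differences of -0.000677, -0.928 and -0.0552 (exact permutation within animals, p 0.75 for each). The differences in share and SD are the same with and without pairing by construction. Runs, TADs and edges have no test and no block. Leaving out 1 library at a time, the share ranged from 12.8% to 48.2% for GOM and MAD and from 11.8% to 44.8% for MAD and RAD. The shares of all sheep windows or bins under these alternatives are not set beside those of chromosome 14. A rise or fall is therefore not read as particular to this chromosome. The 6 named runs kept the direction of MAD minus GOM in all 48 values, each within the spread between animals. These runs were picked by that difference, and in each of them every MAD library lay beyond all GOM libraries. Leaving out 1 library could therefore not turn the direction, and nothing is read from it. The difference in the share of A bins, RAD minus GOM, turned to 0.197 when centred on the library's median and ranged from -3.09 to 1.12 without 1 library. That in the SD over bins ranged from -0.118 to 0.0393, and it turned positive without RAD replicate 1, as did the share. No permutation test passed 0.05 in any alternative, which this design does not allow. Boundaries in the same bin were shared in 54.4% of cases for GOM in MAD, 66.4% for GOM in RAD, 57.6% for MAD in GOM, 62.7% for MAD in RAD, 71.6% for RAD in GOM and 63.8% for RAD in MAD. Unmerged edges numbered 358 in GOM, 507 in MAD and 359.7 in RAD on average, and with runs under 10 bins merged 43.3, 28.7 and 38.7, so that MAD went from the most edges to the fewest. The cause of these shifts was not tested. Only 3 animals, 1 Hi-C library per depot and animal, and TADs without replicates limit what can be told apart.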
